A study of Mus musculus with 6 samples.

Results

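The genes described here are 45 transcription factors that pattern the hypothalamus, read from RNA-seq of the arcuate nucleus (ARC) of adult female mice. They were chosen by name, as homeobox, basic helix-loop-helix and other factors that mark the lineages of the ARC and its neighbours, and include *Nkx2-1*, whose promoter drives Cre in the mutants. All 45 were among the 24015 genes counted, and 40 passed the filter on low counts that left 15236 genes to test. The 3 control mice carried floxed *Esr1* alleles (Esr1fl/fl), and the 3 mutants carried the same alleles with Nkx2-1-Cre (Esr1fl/fl;Nkx2-1-Cre). *Esr1* encodes estrogen receptor alpha. The labels give all 6 mice a mixed CD-1, 129P2 and C57BL/6 background, where the study's methods name CD-1 and 129P2 alone for this cross, and each library came from tissue dissected by hand. The controls lacked Cre, so an effect of Cre itself and an effect of losing *Esr1* cannot be told apart, and recombination reaches any cell with a history of *Nkx2-1* expression, in the ARC and in other tissues. Whether the Cre allele is a knock-in or a transgene was not given in the sources used here.

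Patterning factors bind DNA through homeobox, T-box, bHLH or zinc-finger domains and divide the embryonic hypothalamus into domains that give rise to different neurons. NKX2-1 specifies the ventral hypothalamus, SIX3 and SIX6 pattern its anterior and midline parts, and the DLX factors specify GABAergic neurons. ISL1, BSX and the NHLH factors act later, as ARC neurons acquire their peptides, and OTP and SIM1 are needed for neuroendocrine neurons. Many of these genes stay on in the adult, where they mark the territory a neuron came from or help to keep its identity. In bulk tissue, fewer cells of a type and less RNA per cell cannot be told apart.

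The promoters of the 4 members with the smallest p-values between genotypes are shown because those are the genes with the clearest differences in the values that follow. Each window runs from 250 bases before to 50 bases after the RefSeq start site, 5′ to 3′ on the gene's strand, and was placed on NCBIM37 by exact match. Capitals mark GGTCA or TGACC, the repeated unit of an estrogen response element read on either strand, or CAGCTG, an E-box of the kind bHLH factors bind. *Nhlh2* lies at chr3:101813818-101814117 (plus strand), *Bsx* at chr9:40681960-40682259 (plus strand), *Dlx1* at chr2:71367252-71367551 (plus strand) and *Dlx2* at chr2:71384762-71385061 (minus strand). The *Dlx1* window lies wholly inside the gene as annotated by GENCODE, which starts upstream at 71366170.
Nhlh2: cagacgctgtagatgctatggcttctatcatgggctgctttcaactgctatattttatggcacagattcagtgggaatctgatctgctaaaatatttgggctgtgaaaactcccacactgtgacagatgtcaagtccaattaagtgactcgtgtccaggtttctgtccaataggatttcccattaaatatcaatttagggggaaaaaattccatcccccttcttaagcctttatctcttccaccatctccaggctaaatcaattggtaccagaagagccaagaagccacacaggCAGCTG
Bsx: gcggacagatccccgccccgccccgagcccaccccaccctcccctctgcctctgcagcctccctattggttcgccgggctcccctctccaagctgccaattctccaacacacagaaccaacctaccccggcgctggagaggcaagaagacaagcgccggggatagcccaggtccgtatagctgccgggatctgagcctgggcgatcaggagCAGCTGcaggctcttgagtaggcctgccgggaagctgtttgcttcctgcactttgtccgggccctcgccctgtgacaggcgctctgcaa
Dlx1: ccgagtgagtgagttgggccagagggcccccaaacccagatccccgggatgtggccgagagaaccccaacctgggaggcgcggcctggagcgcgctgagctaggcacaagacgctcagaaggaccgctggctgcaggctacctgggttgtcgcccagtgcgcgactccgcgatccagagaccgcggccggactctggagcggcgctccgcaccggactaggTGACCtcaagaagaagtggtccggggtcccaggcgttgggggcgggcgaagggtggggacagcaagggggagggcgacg
Dlx2: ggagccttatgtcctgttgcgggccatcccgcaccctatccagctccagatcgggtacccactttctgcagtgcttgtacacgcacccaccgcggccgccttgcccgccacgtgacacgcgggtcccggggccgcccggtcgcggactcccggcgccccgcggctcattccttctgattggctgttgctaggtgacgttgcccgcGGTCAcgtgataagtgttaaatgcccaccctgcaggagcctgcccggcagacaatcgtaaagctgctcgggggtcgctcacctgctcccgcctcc

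The *Nhlh2* window was 43.3% G or C, against 65.3% for *Bsx*, 69.3% for *Dlx1* and 66.3% for *Dlx2*. A CAGCTG lay in the *Nhlh2* window, at its very end, and another in the *Bsx* window. *Isl1*, *Lhx6*, *Neurog3* and *Satb1* also had one, making 6 of the 35 members with a RefSeq window, and 16.3% of all 32851 windows held it. The looser CANNTG, which includes CAGCTG, was in windows of 22 members and in 72.3% of all windows. At least 1 GGTCA or TGACC was found for 11 members, *Dlx1*, *Dlx2* and *Nkx2-1* among them, and in 40.5% of all windows. A full estrogen response element, GGTCA and TGACC separated by 3 bases, was in 0.07% of all windows and in those of 0 members. TAATTA, a core that homeodomains bind, was in the window of 1 member, *Emx2*, and in 5.29% of all windows. All motifs were sought on both strands, and a match describes letters only.

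Total counts ran from 11792440 to 17877137 per library, so that 3 counts equal 0.175 to 0.248 CPM, the counts of a gene scaled to a common library size, a limit that covers counting error only. CPM values here are scaled by the trimmed mean of M-values (TMM). *Esr1* was 64.5, 57.5 and 48.5 CPM in the controls and 11.8, 9.55 and 7.06 in the mutants, and its log2 fold change of -2.59 (SE 0.18) passed the test (adjusted p = 0.000884). All 11 ARC neuron markers were detected, with summed levels of 900.4 to 964 CPM in controls and 1056 to 1569.9 in mutants. Mutants lay above all controls for 4 of these markers and below all controls for 1. *Slc6a3*, 1 of the 11, passed the test, so the sum includes a gene that differed between genotypes. Control 2 held almost none of the signal of pars tuberalis and pituitary markers, with a sum over 7 genes of 6.05 CPM against 465 to 753 in the other 5 libraries. Ventromedial nucleus markers summed to 102 to 235 CPM in controls and 138 to 359 in mutants. The 8 oligodendrocyte markers summed to 648 to 1206 CPM in controls and 1572 to 1719.8 in mutants, and pan-neuronal markers to 4879 to 5952 and 5083 to 6265. All 8 oligodendrocyte markers were higher in every mutant than in any control, and 1 of them, *Cldn11*, passed the test. The part of these differences in the members' values was not tested, except where a value without a library is given.

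The members spanned a wide range of levels, which can be compared between genes only per kilobase of exon. *Tbx3*, a T-box repressor that keeps ARC neurons in their peptide identity, was highest at 44.3 CPM per kb, averaged over the 6 libraries. *Prox1* followed at 28.1 CPM per kb, *Isl1* at 27.5 and *Nkx2-1* at 26.3, and these 3 levels lie closer together than the libraries of each. *Six3* at 15.6 CPM per kb, *Nr2f2* at 12.8 and *Six6* at 12.6 came next. *Satb1* (9.12), *Pou3f2* (8.65), *Dlx5* (7.78), *Bsx* (7.12) and *Dlx1* (6.67 CPM per kb) made up a middle group. These levels pool both genotypes. In the controls alone *Dlx5* (9.35) and *Bsx* (9.17) stood above *Pou3f2* (8.89) and *Satb1* (8.81 CPM per kb). The differences were smaller than the SD of *Dlx5*, *Bsx* or *Pou3f2*. *Nr2f2* was likewise below *Six6* in the controls, at 9.85 ± 3.06 and 11.1 ± 1.71 CPM per kb. *Prox1* was below both *Isl1* and *Nkx2-1* in the controls, with means of 25.98, 30.33 and 27.16 CPM per kb. The *Prox1* controls (24.83 to 27.63) did not overlap the *Isl1* controls (28.12 to 31.44 CPM per kb). The lowest were *Lhx8*, *Neurog3* and *Lmx1b*, down to 0.0385 CPM per kb for *Lmx1b*. *Sox1* had no exon length to divide by.

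**Figure D1:**
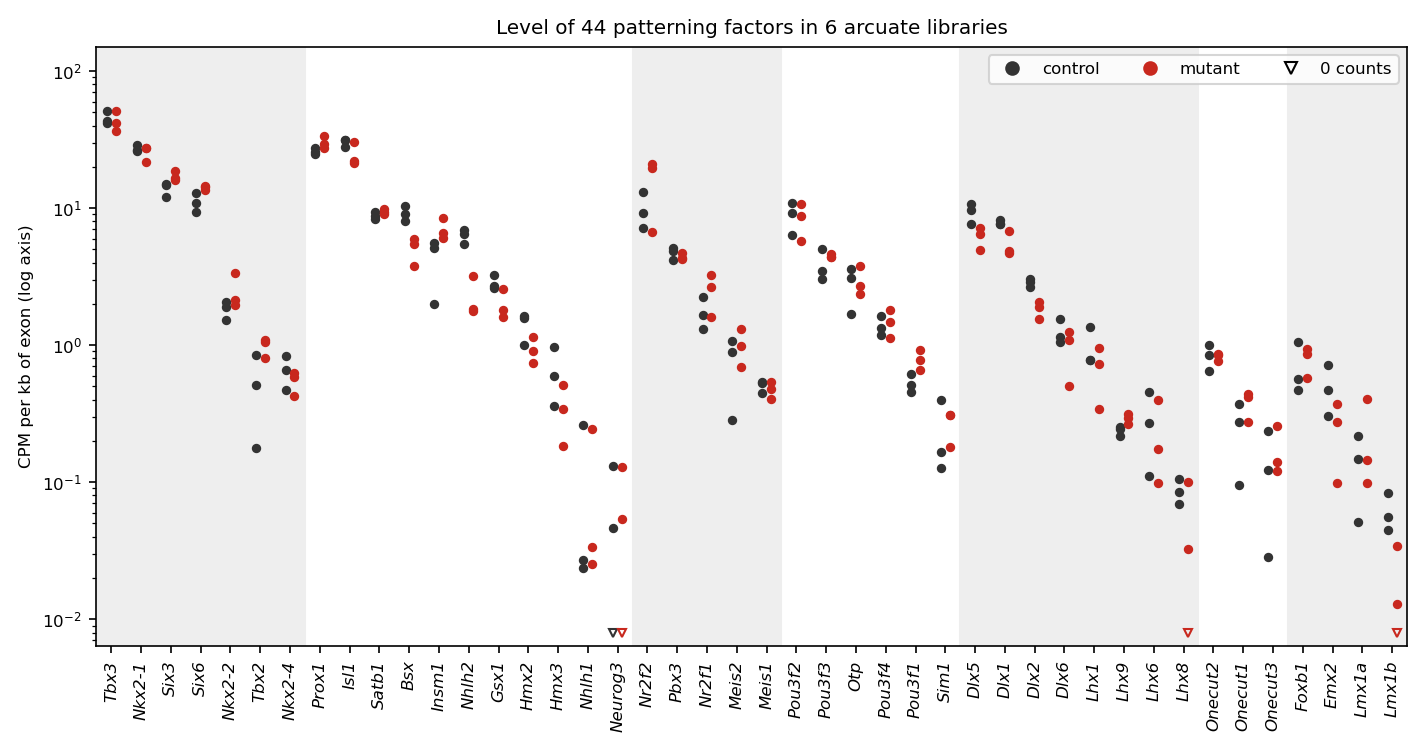
Level of 44 factors in each library in CPM per kb of exon (log axis), grouped by role in alternating shading, with controls in dark grey, mutants in red and open triangles for libraries with 0 counts. *Tbx3*, with a mean of 44.3, lies at the top and *Lmx1b*, with 0.0385, at the bottom.

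The comparison of genotypes asks which of these factors differ in the ARC once *Esr1* is lost. By edgeR's quasi-likelihood test with Benjamini-Hochberg adjustment over all genes tested, 0 of the 40 members passed an adjusted p of 0.05, where 0.118% of all genes (18 genes) did. The closest was *Nhlh2*, next in rank after those 18 genes. By unadjusted p, 8 members (20%) were under 0.05, against 8.85% of all genes. Of these, 5 were lower in mutants (4.01% of all genes were), *Nhlh2*, *Bsx*, *Dlx1*, *Dlx2* and *Dlx5*, and 3 were higher (4.84% of all genes), *Six3*, *Six6* and *Prox1*. The genotypes did not overlap for 11 members (27.5%), against 15.8% of all genes. Mutants lay below all controls for 6 of them (*Nhlh2*, *Bsx*, *Dlx1*, *Dlx2*, *Dlx5* and *Gsx1*) and above for 5 (*Six3*, *Six6*, *Insm1*, *Pou3f1* and *Lhx9*), where each direction took 7.88% of all genes. An exact two-sided permutation test of 3 against 3 cannot go below p = 0.1, so the separation of a single gene carries no stronger test. The members were chosen with earlier results of these data known, so their shares beside those of all genes are a description only.

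The members differed more between genotypes in size than the typical gene, and in both directions. The median log2 fold change of mutants over controls was 0.02 over the 40 members and 0.00355 over all genes tested, with 20 members below 0 and 20 above. Its median size without sign was 0.37 for the members and 0.13 for all genes. Spread between libraries was larger as well, with a median biological coefficient of variation of 0.209 for the members and 0.138 for all genes. Summed over all members, the level was 1111 to 1171 CPM in controls and 1180.0 to 1227 in mutants.

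**Figure D2:**
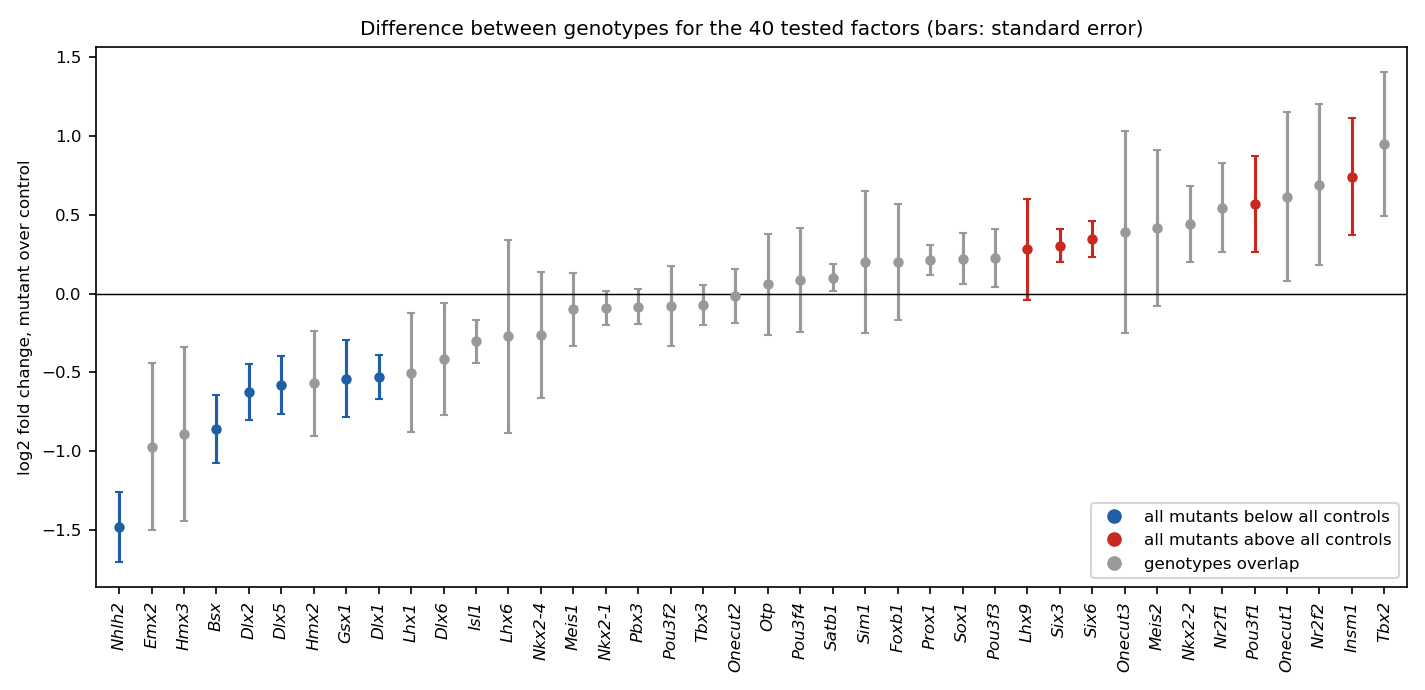
Log2 fold change of mutants over controls with its standard error for the 40 tested factors in order of size, with blue for factors whose mutants all lie below the controls, red for those all above and grey for those that overlap. *Nhlh2* stands at the left end with -1.48 and *Tbx2* at the right end with 0.95, the latter with overlapping libraries.

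*Nhlh2* encodes a neuronal bHLH factor that is needed for normal body weight and fertility and acts on the genes *Pcsk1* and *Mc4r* (its gene is at chromosome 3, 101814068 to 101819415, plus strand, NCBIM37). Its level was 23.3, 18.4 and 21.7 CPM in the controls and 10.7, 6.16 and 6.00 in the mutants. Every mutant was below every control, and mutant 1 was the highest of the mutants. The means were 21.1 ± 2.52 and 7.63 ± 2.69 CPM (SD, n = 3 each), 2.79-fold lower in mutants. The log2 fold change of -1.48 (SE 0.22) did not reach the threshold with edgeR (adjusted p = 0.0568). It passed with DESeq2, the tool of the study (adjusted p = 3.32e-07, in a fit that called 1.27% of all genes). It also passed with limma voom (0.0308, with 0.131% of all genes called), with a filter of 1 count in any sample (0.00197, 0.471% called) and with one of 10 counts in every sample (0.0499, 0.142% called). It was the single member that passed under any of these. With edgeR under relative log expression (RLE) normalization it did not pass (adjusted p = 0.0549). Leaving out 1 library in turn kept the log2 fold change between -1.80 and -1.34, and the adjusted p ran from 0.00418 without mutant 1 to 0.222 without mutant 2. The adjusted p was under 0.05 without mutant 1 and without control 2 (0.0266), and in none of the other leave-one-out fits. *Nhlh1*, its close relative, was near the limit of counting in both genotypes, with 1, 1 and 9 counts in the controls and 1, 1 and 9 in the mutants.

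*Bsx* encodes a homeodomain factor of the *Npy* and *Agrp* neurons that govern feeding (chromosome 9, 40682210 to 40686055, plus strand). It was measured at 9.05, 7.91 and 7.10 CPM in controls and at 5.20, 4.77 and 3.33 in mutants, with no overlap. The means of 8.02 ± 0.977 and 4.43 ± 0.979 CPM gave a log2 fold change of -0.86 (SE 0.22), which did not pass (adjusted p = 0.215). *Agrp* and *Npy* themselves had log2 fold changes of 0.13 and 0.30 and did not pass the test. *Gsx1* (chromosome 5, 148000272 to 148002523, plus strand) is needed for the *Ghrh* neurons that drive growth hormone release. It was 4.82, 4.65 and 5.81 CPM in controls and 4.54, 2.83 and 3.20 in mutants. The lowest control and mutant 1 were only just apart, and the log2 fold change was -0.54 (SE 0.24, adjusted p = 0.561). With CPM scaled by total counts alone the *Gsx1* values overlapped. *Ghrh* ranged from 46.9 to 75.7 CPM in controls and from 53.1 to 120.4 in mutants.

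The other ARC fate factors included members on both sides of 0. *Isl1*, a LIM-homeodomain factor that switches on *Pomc*, was 79.4, 71.0 and 79.4 CPM in controls and 77.1, 55.4 and 54.1 in mutants. Mutant 1 lay among the controls and the other 2 mutants below them, with a log2 fold change of -0.30 (SE 0.14, adjusted p = 0.561). *Insm1*, a zinc-finger factor of neuroendocrine differentiation, was 15.8, 6.17 and 17.2 CPM in controls and 26.1, 20.5 and 18.8 in mutants. Control 2, the library without pars tuberalis signal, was far below the other controls, and the log2 fold change of 0.74 (SE 0.37) became 0.40 without it. *Prox1*, a homeodomain factor, was 105, 103 and 114 CPM in controls and 139, 113 and 121 in mutants. Mutant 2 was under control 3, and the log2 fold change was 0.21 (SE 0.10, adjusted p = 0.561). *Satb1*, a chromatin organiser, was 77.8 to 88.2 CPM in controls and 84.5 to 92.8 in mutants, with a log2 fold change of 0.10 (SE 0.08). The neighbouring homeobox genes *Hmx2* and *Hmx3*, which like *Gsx1* are needed for *Ghrh* neurons, overlapped between genotypes. *Hmx2* ranged from 1.24 to 2.73 CPM over the 6 libraries (log2 fold change -0.57, SE 0.33) and *Hmx3* from 0.266 to 1.41 CPM (log2 fold change -0.89, SE 0.55). *Neurog3*, an early proneural factor, had 0 to 3 counts in every library and was not tested. In all, 2 of the 9 tested ARC fate factors were lower and 1 was higher at an unadjusted p of 0.05, where 4.01% and 4.84% of all genes were, and 0 passed the adjusted threshold. Their median log2 fold change was -0.54, against 0.00355 for all genes.

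**Figure D3:**
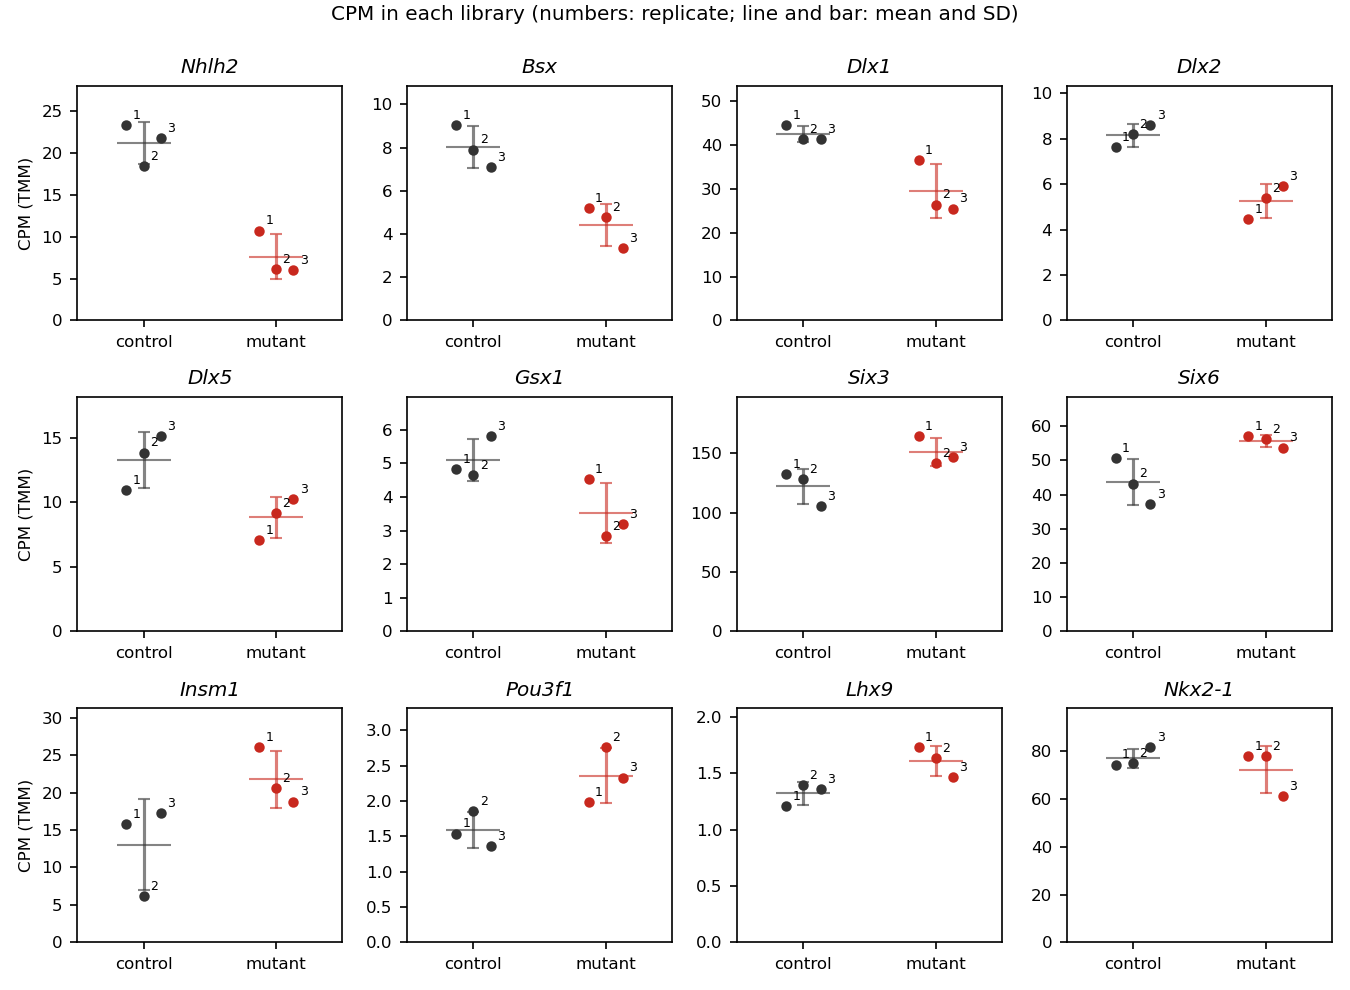
CPM of 12 factors in each library on axes that start at 0, with controls in dark grey, mutants in red, the replicate number beside each point, and mean and SD as line and bar. The first 6 panels show factors whose mutants all lie below the controls, the next 5 show factors whose mutants all lie above them, and *Nkx2-1* overlaps.

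Of the 7 tested DLX and LIM factors, 6 had a log2 fold change below 0, as did 7473 of all 15236 genes, and 0 passed the adjusted threshold. Their median was -0.50, against 0.00355 for all genes, and 3 were lower at an unadjusted p of 0.05, where 4.01% of all genes were. *Dlx1* and *Dlx2* are neighbours on chromosome 2, 9.4 kb apart on opposite strands. *Dlx1* was 44.6, 41.4 and 41.4 CPM in controls and 36.6, 26.4 and 25.5 in mutants, so that the controls were tight and mutant 1 lay between them and the other mutants. Its log2 fold change was -0.53 (SE 0.14, adjusted p = 0.239). *Dlx2* was 7.64, 8.20 and 8.61 CPM in controls and 4.46, 5.40 and 5.93 in mutants, with a log2 fold change of -0.63 (SE 0.18, adjusted p = 0.303). The second pair, *Dlx5* and *Dlx6*, lies 9.2 kb apart on opposite strands of chromosome 6. *Dlx5* was 10.9, 13.8 and 15.1 CPM in controls and 7.10, 9.17 and 10.3 in mutants, again with no overlap (log2 fold change -0.58, SE 0.18, adjusted p = 0.355). *Dlx6* was 2.75, 3.66 and 2.51 CPM in controls and 2.97, 2.58 and 1.20 in mutants. Its genotypes overlapped, and its log2 fold change was -0.42 (SE 0.35).

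Antisense and divergent transcripts beside these genes, chosen after their values were seen, overlapped between genotypes. *Dlx1as* shares 335 bases of exon with *Dlx1* on the opposite strand and *Dlx6os1* starts beside *Dlx6*; whether the counting used strand was not given in the sources used here, so reads in shared exons cannot be told apart. *Dlx1as* was 2.08, 2.04 and 3.37 CPM in controls and 2.15, 1.82 and 1.67 in mutants (log2 fold change -0.41, SE 0.32). *Dlx6os1* had a log2 fold change of -0.17 (SE 0.18). Of the genes for making and loading GABA, *Gad1* was 222, 204 and 216 CPM in controls and 197, 159.96 and 149 in mutants, lower in all mutants, with a log2 fold change of -0.35 (SE 0.11) that did not pass (adjusted p = 0.329). *Gad2* and *Slc32a1*, the latter the vesicular GABA transporter, overlapped between genotypes, with -0.13 (SE 0.11) and -0.24 (SE 0.10). *Lhx9* was the 1 tested member of this group with a log2 fold change above 0, with 1.21, 1.40 and 1.36 CPM in controls and 1.73, 1.63 and 1.47 in mutants. The genotypes did not overlap, and the log2 fold change was 0.28 (SE 0.32, adjusted p = 0.856). *Lhx1*, a regulator of the circadian nucleus, ranged from 1.40 to 5.59 CPM over the 6 libraries (log2 fold change -0.50, SE 0.38). *Lhx6*, an interneuron factor, ranged from 0.466 to 2.15 CPM (log2 fold change -0.27, SE 0.61). *Lhx8* had 15 counts in all and was not tested.

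**Figure D4:**
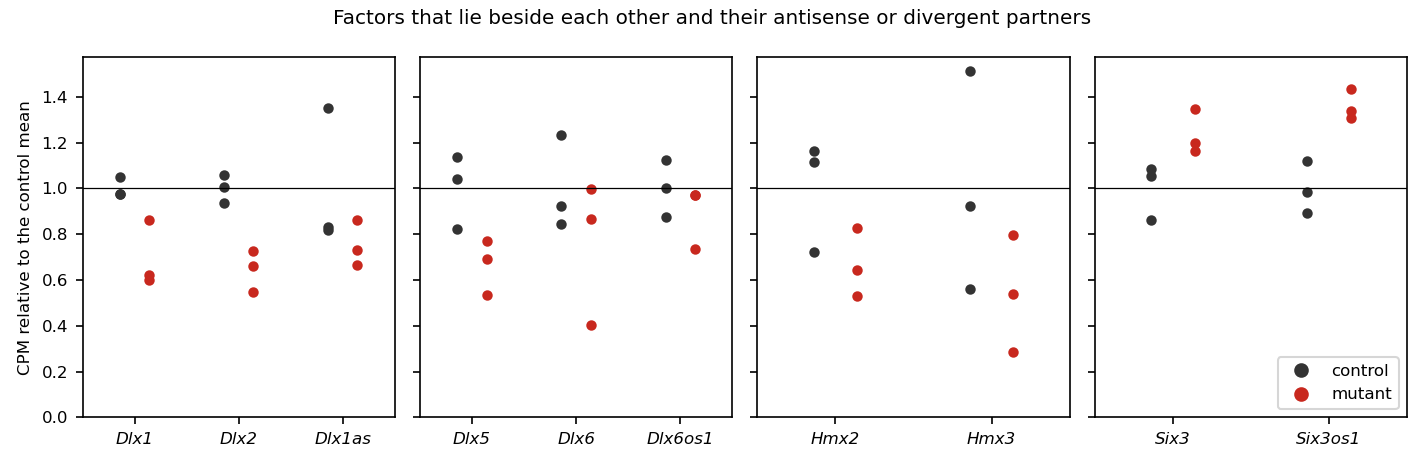
CPM of neighbouring factors and of antisense or divergent partners, each divided by its own control mean, with controls in dark grey and mutants in red. All mutants lie below the controls for *Dlx1*, *Dlx2* and *Dlx5* and above them for *Six3* and *Six3os1*, while *Dlx6*, *Hmx2* and *Hmx3* overlap.

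*Six3* and *Six6*, homeobox genes of the anterior midline, were higher in every mutant than in any control. *Six3* (chromosome 17, 86012948 to 86031153, plus strand) was 132, 128 and 105 CPM in controls and 164, 142 and 146 in mutants. The log2 fold change was 0.30 (SE 0.10), which did not pass (adjusted p = 0.395). *Six6* (chromosome 12, 74040932 to 74045886, plus strand) was 50.7, 43.2 and 37.2 CPM in controls and 57.1, 56.2 and 53.7 in mutants, with a log2 fold change of 0.35 (SE 0.12, adjusted p = 0.386). The *Six6* mutants spanned a narrow range above a wider spread of controls. *Six3os1*, a transcript of the opposite strand that shares 106 bases of exon with *Six3*, was also higher in all mutants (log2 fold change 0.44, SE 0.10, adjusted p = 0.169).

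*Nkx2-1*, whose promoter drives Cre, did not differ detectably. Its level was 74.2, 74.9 and 81.6 CPM in controls and 77.8, 77.8 and 61.1 in mutants, with mutants 1 and 2 within the range of the controls and mutant 3 below it. The log2 fold change was -0.09 (SE 0.11, adjusted p = 0.864), and leaving out mutant 3 turned it to 0.02. *Nkx2-2*, which also marks the oligodendrocyte lineage, was 5.49, 4.42 and 5.95 CPM in controls and 6.19, 5.65 and 9.66 in mutants (log2 fold change 0.44, SE 0.24). *Nkx2-4* was near 1 CPM in both genotypes (log2 fold change -0.26, SE 0.40). *Tbx3*, the member with the highest level, was 274, 226 and 231 CPM in controls and 274, 224 and 197 in mutants, with a log2 fold change of -0.07 (SE 0.13). *Tbx2*, its relative of infundibulum and pituitary, was 3.08, 0.640 and 1.86 CPM in controls and 3.96, 3.83 and 2.93 in mutants. It had the highest log2 fold change of the members, 0.95 (SE 0.46), which did not pass (adjusted p = 0.596) and was 0.52 without control 2. *Sox1* ranged from 93.7 to 118 CPM in controls and from 97.9 to 152 in mutants (log2 fold change 0.22, SE 0.16).

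Neuroendocrine and POU class 3 factors overlapped between genotypes, apart from *Pou3f1*. *Otp* was 3.69, 4.25 and 2.01 CPM in controls and 4.46, 3.20 and 2.80 in mutants (log2 fold change 0.06, SE 0.32). *Sim1*, which specifies neurons of the paraventricular nucleus, ranged from 0.938 to 2.91 CPM over the 6 libraries (log2 fold change 0.20, SE 0.45). *Pou3f1* was 1.54, 1.86 and 1.36 CPM in controls and 1.98, 2.76 and 2.33 in mutants, a log2 fold change of 0.57 (SE 0.30, adjusted p = 0.630). Nearly all of its exon sequence is covered by a second annotated entry of the same symbol and strand, typed as a pseudogene. Whether this entry affected the counts was not tested. *Pou3f2* ranged from 9.74 to 18.5 CPM over the 6 libraries (log2 fold change -0.08, SE 0.25), *Pou3f3* from 9.25 to 15.3 CPM (0.23, SE 0.19) and *Pou3f4* from 1.33 to 2.14 CPM (0.09, SE 0.33). None of these 6 members was under an unadjusted p of 0.05.

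The Onecut, caudal, TALE and COUP-TF members overlapped between genotypes wherever they were tested. *Onecut1* ranged from 0.201 to 0.933 CPM over the 6 libraries (log2 fold change 0.62, SE 0.54), *Onecut2* from 10.4 to 15.9 CPM (-0.01, SE 0.17) and *Onecut3* from 0.134 to 1.20 CPM (0.39, SE 0.64). *Foxb1*, a mammillary factor, was 1.41 to 3.16 CPM over the 6 libraries, with a log2 fold change of 0.20 (SE 0.37). *Emx2*, which marks the pallium and caudal domains, was 1.27, 0.814 and 1.94 CPM in controls and 0.743, 1.01 and 0.266 in mutants, with a log2 fold change of -0.97 (SE 0.53, adjusted p = 0.644). *Lmx1b* had 4, 7 and 3 counts in controls and 2, 1 and 0 in mutants, too few to test. *Lmx1a* had 54 counts in all and was not tested either. Of the homeodomain cofactors, *Meis1* ranged from 2.97 to 4.01 CPM (log2 fold change -0.10, SE 0.23) and *Pbx3* from 26.8 to 32.6 CPM (-0.08, SE 0.11).

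*Nr2f2* and *Meis2* were among the members with the widest spread between libraries of the same genotype, with biological coefficients of variation of 0.425 and 0.417. *Nr2f2*, an orphan receptor of the COUP-TF family, was 34.6, 45.1 and 63.9 CPM in controls and 32.7, 96.2 and 102 in mutants. Mutant 1 was the lowest of all 6 libraries and the other 2 mutants the highest, with a log2 fold change of 0.69 (SE 0.51, adjusted p = 0.779) that became 1.05 without mutant 1. *Nr2f1* was 6.23, 7.91 and 10.6 CPM in controls and 7.59, 15.6 and 12.7 in mutants (log2 fold change 0.55, SE 0.28). Summed ventromedial nucleus markers were 102, 235 and 171 CPM in the controls and 138, 288 and 359 in the mutants. This sum and *Nr2f2* were both highest in mutants 2 and 3. Both were lowest in control 1 among the controls and in mutant 1 among the mutants. Among controls the sum was highest in control 2 and *Nr2f2* in control 3. *Meis2*, a TALE homeodomain factor, was 10.7, 3.37 and 12.7 CPM in controls and 11.7, 15.5 and 8.26 in mutants. Its log2 fold change of 0.42 (SE 0.50) came down to 0.02 without control 2. The part of tissue outside the ARC in these differences was not tested.

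**Figure D5:**
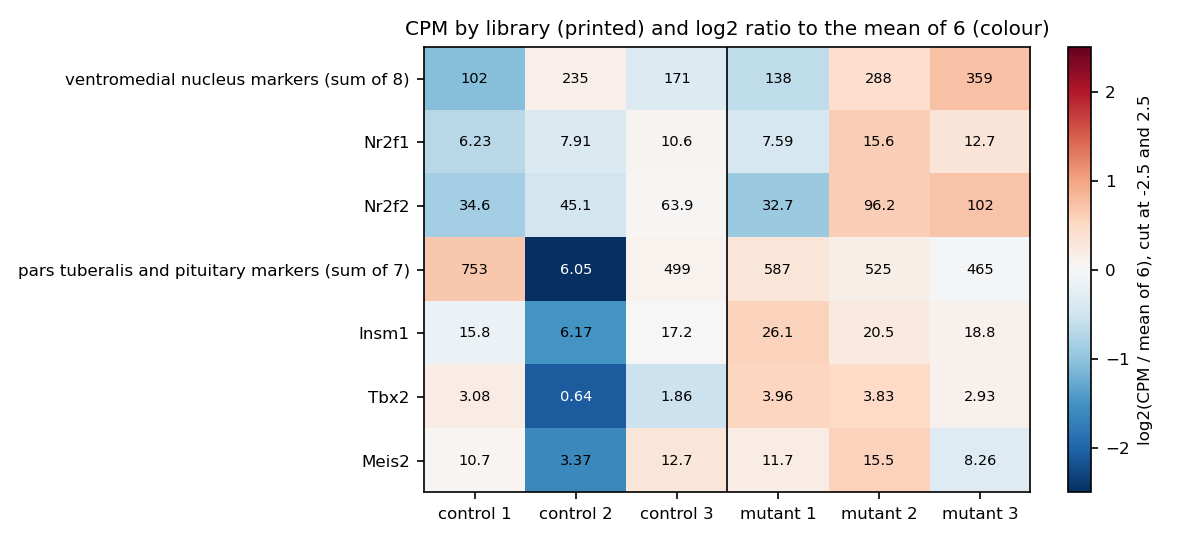
CPM by library for *Nr2f1*, *Nr2f2*, *Insm1*, *Tbx2* and *Meis2*, and for summed markers of the ventromedial nucleus and of the pars tuberalis and pituitary. Colour gives the log2 ratio to the mean of the 6 libraries, limited at -2.5 and 2.5. Some members with a wide spread are not shown, among them *Lhx6* and *Onecut3* (biological coefficients of variation 0.467 and 0.421). *Insm1*, *Tbx2* and *Meis2* are lowest in control 2, where the pars tuberalis and pituitary sum is 6.05.

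The other hypothalamic transcription factors, 99 genes listed apart from the members, were read in the same way. Of 83 tested, 0 passed with edgeR, 16 (19.3%, against 8.85% of all genes) were under an unadjusted p of 0.05, with 9 lower and 7 higher, and 20 (24.1%, against 15.8%) did not overlap between genotypes. Their log2 fold changes were above 0 for 57 and below 0 for 26, with a median of 0.14. The smallest p-value belonged to *Nr4a2*, an orphan nuclear receptor of dopamine neurons, which was 32.2, 29.6 and 23.7 CPM in controls and 11.8, 14.4 and 7.99 in mutants. Its log2 fold change of -1.32 (SE 0.21) did not pass with edgeR (adjusted p = 0.0643). It passed with DESeq2 (adjusted p = 9.9e-07) and with the filter of 1 count in any sample (0.0109), and not with limma voom (0.0583) or the filter of 10 counts in every sample (0.0548). *Zfhx3*, *Lhx5* and *Tcf7l2* had the next smallest p-values, with log2 fold changes of -0.39 (SE 0.08), -1.05 (SE 0.28) and -0.38 (SE 0.11), all lower in mutants.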

How the data were processed

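Arcuate nucleus was dissected by hand from a 2 mm coronal section and libraries were made from 50 ng of total RNA. The authors deposited raw read counts per gene symbol, 1 table per library. Per the submitters' processing notes these came from TopHat2 2.1.0, HTSeq 0.6 and DESeq2 1.14.1 with build mm9, while the study's methods join the names of different mouse assemblies, so no coordinate of the counting is given. Whether counting used strand was not given in the sources used here.

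Counts were fitted in R 4.3.3 with edgeR 4.0.16 (quasi-likelihood test, TMM, filterByExpr, all 6 libraries, no covariate) and adjusted by Benjamini-Hochberg over all 15236 genes tested. Alternatives were DESeq2 1.42.0, limma 3.58.1 (voom), other normalization, looser and stricter filters, a replicate block and each library left out. The tests were checked on simulated data. With 3 samples per genotype, p-values measure the spread between these samples. The members, roles, marker lists and list of other hypothalamic transcription factors were chosen with earlier results of these data known. By rule, *Nkx2-1*, *Esr1* and the members with an unadjusted p under 0.05 or without overlap between genotypes are given with the value of every sample, and every other tested member by level and fold change; *Isl1*, *Dlx6*, *Nkx2-2*, *Tbx2*, *Tbx3*, *Otp*, *Emx2*, *Meis2*, *Nr2f1* and *Nr2f2* are given by sample as well, a choice made after their values were seen, and the other hypothalamic factors by the 4 smallest p-values. *Gad1*, *Gad2*, *Slc32a1*, the antisense partners and peptide genes were added after values were seen.

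Positions are from GENCODE vM1 on NCBIM37, matched by symbol for 44 of 45 members. Promoter windows are from RefSeq (table of GRCm38.p6), found for 35 members and placed on NCBIM37 by exact sequence match.

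Of the marker lists not given with the results, summed CPM in controls and mutants were 803 to 972 and 566 to 696 (paraventricular, supraoptic and periventricular, mostly *Sst*), 25.1 to 69.1 and 30.8 to 76.6 (preoptic and telencephalic), 11.7 to 20.7 and 12.6 to 22.9 (mammillary and lateral), 329 to 371 and 317 to 358 (thalamic), 288 to 478 and 419 to 540.4 (tanycyte and ependymal), 196 to 259.9 and 233 to 279 (oligodendrocyte precursor), 138 to 153 and 177 to 186 (microglia), 1022 to 1373 and 1092 to 1399 (astrocyte), and 58.1 to 80.0 and 70.0 to 75.6 (endothelial).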

Additional observations from a re-analysis of the deposited data

How the results depend on the processing

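Under the alternatives the count of genes past the threshold, 18 with edgeR, was 191 with DESeq2, 106 with a filter of 1 count in any sample and 7 to 46 when 1 library was left out. The count of members past it, 0 with edgeR under TMM or RLE normalization, was 1 (*Nhlh2*) with DESeq2, voom and both other filters. It was 0 to 1 when 1 library was left out. Of the other hypothalamic transcription factors, 2 (*Nr4a2* and *Zfhx3*) passed with DESeq2 and with the looser filter. Deviations of same-numbered samples from their group means correlated at 0.281, 0.0466 and -0.00264, against -0.263 to 0.21 for differently numbered samples. Whether same-numbered samples shared a dissection or batch was not tested. With a replicate block 123 genes, 1 member (*Nhlh2*) and 3 of the other factors (*Nr4a2*, *Zfhx3* and *Tbx19*) passed. The 11 members without overlap (27.5%, against 15.8% of all genes) became 13 to 19 when 1 library was left out. The count was 13 without control 1 (32.5%, against 27.7% of all genes). It was 19 without control 2 (47.5%, against 24.5%) and 18 without mutant 1 (45%, against 27.3%). Each other omission gave 14 (35%, against 22.5% to 26.3% of all genes). The median log2 fold change of the members, 0.02 over the 40 tested, was -0.0192 with DESeq2, where all 45 members had a value. It ranged from -0.0186 to 0.0872 (without mutant 1) when 1 library was left out, over the members each fit kept. These medians therefore do not all cover the same members. Of 40 tested members, 30 kept their direction under every alternative. The others turned: with 1 library left out, *Nkx2-1* ran from -0.150 to 0.0162, *Tbx3* from -0.212 to 0.0302, *Otp* from -0.195 to 0.276, *Lhx6* from -1.02 to 0.268, *Sim1* from -0.0898 to 0.864, *Pou3f2* from -0.282 to 0.127, *Pou3f4* from -0.101 to 0.246, *Onecut2* from -0.167 to 0.133, *Onecut3* from -0.0707 to 1.20 and *Foxb1* from -0.0122 to 0.617. With CPM scaled by total counts alone 11 members did not overlap, *Prox1* in place of *Gsx1*. *Onecut2* was also 0.0147 with voom and 0.000952 with the replicate block. The causes were not tested. *Esr1* stayed past the threshold throughout, from -2.77 to -2.42. Members under about 1 CPM rest on few counts per library, and 5 could not be tested at this depth.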

Other observations

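Several genes with known links to the members were read beside them, chosen after their values were seen. *Pcsk1*, the prohormone convertase on which NHLH2 acts, was 67.7, 64.9 and 59.4 CPM in controls and 111, 74.6 and 77.7 in mutants, higher in all mutants (log2 fold change 0.45, SE 0.15, adjusted p = 0.391). *Mc4r*, a melanocortin receptor gene also linked to NHLH2, was 2.41, 3.32 and 1.22 CPM in controls and 0.660, 1.63 and 1.20 in mutants (log2 fold change -0.98, SE 0.45, adjusted p = 0.571), with overlapping genotypes. *Sst*, which encodes somatostatin, was 799, 779 and 966 CPM in controls and 596, 669 and 526 in mutants, lower in all mutants. Its log2 fold change of -0.51 (SE 0.12) did not pass with edgeR (adjusted p = 0.163) and passed with DESeq2 (adjusted p = 0.0029). *Pomc* had a log2 fold change of 0.38 and did not pass.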
